A study of Mus musculus with 17 samples.

Results

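The annexins are calcium-dependent proteins that bind acidic phospholipids of cell membranes. They were chosen here by gene name: *Anxa1* to *Anxa8* and *Anxa11*, 9 of the 31647 features in the count table. This choice, and that of the gene lists used below, was made with earlier results of these data known. All 9 were found in the table as features of their own. Transcripts were counted in hearts of male C57BL/6 J wild-type mice, which had surgery at 8 to 11 weeks of age and were examined 5 days later. In 9 mice the left anterior descending artery (LAD) was permanently ligated, which causes a myocardial infarction, and the infarct zone (IZ) was dissected for RNA. The 8 sham mice had the same operation without ligation, and RNA came from left ventricular (LV) tissue. Each library came from 1 mouse per the study's methods, and the labels name the samples of a group only by number. The comparison is between IZ and sham tissue, so it includes the difference in cell content between a dissected infarct and a whole ventricle wall. In bulk tissue, fewer cells of a type and less RNA per cell cannot be told apart.

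Annexins share a core that binds membranes when calcium rises, and differ in their N-terminal tails, through which several of them bind small EF-hand proteins such as the S100 family. In the heart they are known for sealing torn plasma membrane, for binding phosphatidylserine on dying cells and for steering the inflammatory response. Annexin A1 limits the influx of neutrophils through formyl peptide receptors, annexin A2 docks plasminogen activation on the cell surface together with S100A10, and annexin A6 is a major annexin of heart muscle.

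5 days after LAD ligation, transcripts of 7 of the 9 annexins were higher in IZ than in sham, 1 was lower and 1 was not called. *Anxa1*, *Anxa2*, *Anxa3*, *Anxa4* and *Anxa5* rose by a log2 fold change between 1.50 and 2.74, *Anxa8* rose from a very low level, and *Anxa7* rose slightly. *Anxa11* fell with TMM scaling (trimmed mean of M values) but stood at 0.26, uncalled, on total counts alone, and *Anxa6* did not pass the test. Of the 12301 genes tested, 36.3% were called higher, 33.1% lower and 69.5% in either direction, so a call as such was common. A rise of at least 2-fold was called for 6 of the 9 annexins, and for 19.3% of all tested genes. A fall of at least 2-fold was called for none of the annexins and for 18.3% of all tested genes. The median log2 fold change of the 9 annexins was 1.94, beside 0.05 over all tested genes. Since the 9 were chosen with earlier results known, these contrasts are given as a description. *Anxa8* passed the filter on low counts through its IZ libraries, and without it 6 of 8 annexins were called higher with a median of 1.72. The test was the quasi-likelihood test of edgeR, adjusted by Benjamini and Hochberg's method over all tested genes.

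Total counts per library ran from 1237675 to 4738307. Mitochondrially encoded transcripts took 22.9 to 32.4% of the counts in sham, 4.22 to 6.78% in 8 IZ libraries and 19.5% in IZ replicate 1. All 8 cardiomyocyte markers were lower in IZ. Levels are given in CPM, counts divided by library sizes that were scaled by TMM. Their summed level was 66820 to 79417 CPM in sham, 2826 to 6774 CPM in 8 IZ libraries and 29636 CPM in IZ replicate 1. That library therefore stood between the groups, and results that rest on it are given with and without it. Of the 8 macrophage markers 8 were higher, with sums of 402 to 578 CPM in sham, 3820 to 5685 CPM in 8 IZ libraries and 2214 CPM in IZ replicate 1. Of the 8 fibroblast markers 7 were higher (*Dcn* was not called), with sums of 1541 to 2981 CPM in sham, 14881 to 20695 CPM in 8 IZ libraries and 12685 CPM in IZ replicate 1. Of 4 tested neutrophil markers 4 were higher, while *Ly6g*, which defines these cells, had at most 1 count in any library. None of the 8 endothelial markers was higher and 3 were lower. Of 8 smooth muscle and pericyte markers 4 were higher and 4 lower, and 1 of 8 T, B and NK cell markers was tested. Over all tested genes 36.3% were called higher and 33.1% lower, and the endothelial count of lower genes was near the latter share. The part of these cell types in the annexin values was not tested.

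**Figure D1:**
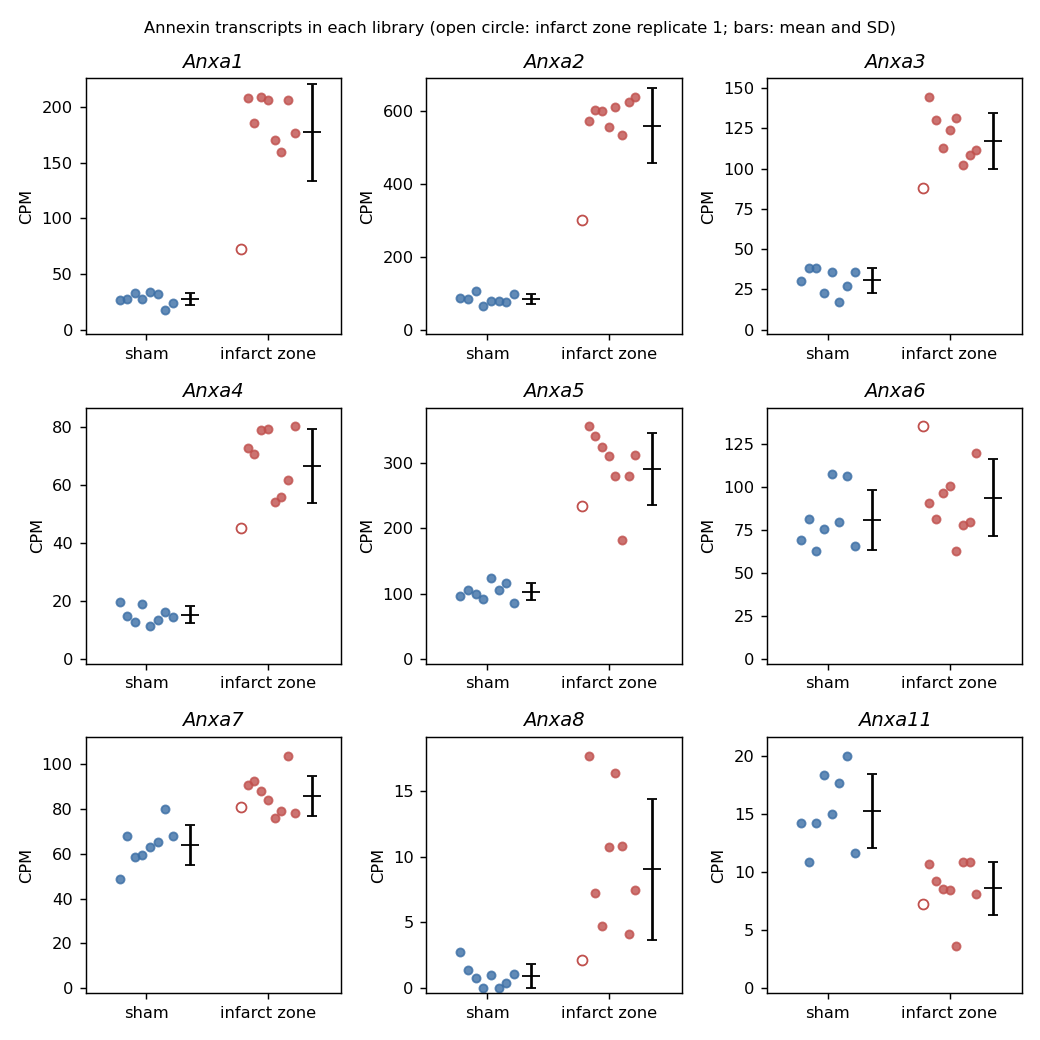
Level of each annexin (CPM, y axis) in the 8 sham and 9 IZ libraries, 1 panel per gene, with bars for mean and SD and an open circle for IZ replicate 1. For *Anxa1* to *Anxa5* the points of the groups do not overlap, and *Anxa6* overlaps widely. For *Anxa11* every IZ point lies below every sham point with the libraries scaled by TMM. The *Anxa11* groups all but touch, with 10.846 CPM as the highest IZ point and 10.859 CPM as the lowest sham point.

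*Anxa2* and *Anxa1*, the pair with the steepest rise among the well-counted annexins, and *Anxa11*, the one that fell, are shown with the sequence around their start sites. The windows are RefSeq's on GRCm38.p6 and reach from 250 bases before to 50 bases after the start. *Anxa2* lies at chr9:69453433-69453732 (+ strand), *Anxa1* at chr19:20390622-20390921 (- strand) and *Anxa11* at chr14:25841905-25842204 (+ strand). Capitals mark motifs on either strand. The letters TATAAA stand for the TATA box, which positions RNA polymerase at many start sites. The motif of the factor AP-1 was searched as TGANTCA, where N is any base. A GC box, bound by factors of the Sp family, was searched as GGGCGG on both strands. The E-box, bound by helix-loop-helix factors, was searched as CACGTG, and in these 3 windows no match overlapped a match to another motif.
Anxa2: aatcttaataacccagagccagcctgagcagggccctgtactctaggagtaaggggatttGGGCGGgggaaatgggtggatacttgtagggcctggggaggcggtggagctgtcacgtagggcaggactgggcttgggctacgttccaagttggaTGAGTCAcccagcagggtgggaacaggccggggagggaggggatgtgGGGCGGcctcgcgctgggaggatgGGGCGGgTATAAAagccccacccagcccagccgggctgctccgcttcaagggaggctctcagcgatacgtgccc
Anxa1: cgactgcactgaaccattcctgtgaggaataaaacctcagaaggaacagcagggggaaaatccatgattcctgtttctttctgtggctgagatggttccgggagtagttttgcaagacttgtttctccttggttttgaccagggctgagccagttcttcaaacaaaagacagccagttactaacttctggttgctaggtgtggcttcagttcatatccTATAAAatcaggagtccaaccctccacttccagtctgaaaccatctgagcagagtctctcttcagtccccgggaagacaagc
Anxa11: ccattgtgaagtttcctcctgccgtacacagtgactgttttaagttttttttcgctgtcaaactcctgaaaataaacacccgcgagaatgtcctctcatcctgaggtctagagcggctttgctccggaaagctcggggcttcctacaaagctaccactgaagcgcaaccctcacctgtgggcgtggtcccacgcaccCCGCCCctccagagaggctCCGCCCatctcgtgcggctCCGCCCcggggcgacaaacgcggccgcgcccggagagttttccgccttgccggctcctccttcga

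The *Anxa2* window held TATAAA with its first base at position -17 from the start, the AP-1 motif at -95 and 3 GC boxes. The *Anxa1* window held TATAAA at -32 and none of the other motifs. The *Anxa11* window held 3 GC boxes on the opposite strand, at -53, -34 and -15, and no TATAAA. Its 25 CpG dinucleotides stood against 13 for *Anxa2* and 3 for *Anxa1*, and a median of 7 over the 32851 promoter windows in the table. GC content was 63.7% for *Anxa2*, 47.3% for *Anxa1* and 59.7% for *Anxa11*, beside a median of 52.7%.

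In all, 7 annexins were matched to 9 windows, and *Anxa3* and *Anxa6* were not matched. TATAAA was in 2 of the 9 windows (13.6% of all windows), the AP-1 motif in 1 (7.81%), a GC box in 5 (35.7%) and the E-box in 1, that of *Anxa7* (7.15%). These matches describe letters in a window and were not set against the changes by a test.

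*Anxa2* is the annexin that forms a complex with S100A10 and links membranes to actin. In sham its level ran from 63.6 CPM through a median of 81.1 to 105 CPM. In IZ it ran from 301 CPM in replicate 1 through a median of 598 to 637 CPM. Every IZ library lay above every sham library, with replicate 1 far below the other 8. The mean rose from 83.7 ± 12.8 CPM (SD, n = 8) to 559 ± 102 CPM (SD, n = 9), a log2 fold change of 2.74 ± 0.15 (SE, adjusted p = 1.13e-12). Without IZ replicate 1 the log2 fold change was 2.79.

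*Anxa1* encodes the pro-resolving annexin, a ligand of formyl peptide receptors. Its sham level ran from 17.3 CPM through a median of 27.9 to 33.6 CPM, and its IZ level from 72.5 CPM in replicate 1 through a median of 186 to 209 CPM. The groups did not overlap, and again replicate 1 stood apart at the low end. The mean went from 27.7 ± 5.42 CPM (SD, n = 8) to 177 ± 43.4 CPM (SD, n = 9). The log2 fold change was 2.69 ± 0.18 (SE, adjusted p = 2.25e-11) and 2.76 without IZ replicate 1.

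*Anxa5*, whose protein binds phosphatidylserine on apoptotic cells, had the highest mean of the family in sham. Sham libraries held 85.0 CPM at the lowest, 102 CPM at the median and 124 CPM at the highest. IZ libraries held 182 CPM in replicate 7, 310 CPM at the median and 357 CPM at the highest. Every IZ library was above every sham library. The mean rose from 103 ± 12.7 CPM (SD, n = 8) to 291 ± 55.0 CPM (SD, n = 9), a log2 fold change of 1.50 ± 0.13 (SE, adjusted p = 1.03e-09).

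*Anxa3*, an annexin of neutrophil granules and of endothelium, had sham levels of 16.9 to 38.0 CPM with a median of 32.8 CPM. Its IZ levels ran from 87.7 to 144 CPM with a median of 113 CPM. The groups were apart, and the log2 fold change was 1.94 ± 0.14 (SE, adjusted p = 7.42e-11). *Anxa4*, an annexin best known from secretory epithelia, ran from 11.4 to 19.7 CPM in sham with a median of 14.7 CPM. In IZ it ran from 44.9 to 80.1 CPM with a median of 70.7 CPM. Here too no IZ library reached down to the sham range, and the log2 fold change was 2.12 ± 0.15 (SE, adjusted p = 2.27e-11). For both genes IZ replicate 1 held the lowest IZ value. Thus 5 of the 9 annexins had every IZ library above every sham library, as had 16.6% of all tested genes.

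*Anxa6*, whose protein carries the annexin core in duplicate, did not pass the test. Its sham levels ran from 62.6 CPM through a median of 77.3 to 108 CPM. Its IZ levels ran from 62.5 CPM through a median of 90.7 to 135 CPM, the highest being IZ replicate 1, the library with the most cardiomyocyte transcripts of its group. The groups overlapped over most of their range. Sham averaged 80.9 ± 17.4 CPM (SD, n = 8) and IZ 93.7 ± 22.4 CPM (SD, n = 9). The log2 fold change was 0.21 ± 0.15 (SE, adjusted p = 0.221), and 0.09 without IZ replicate 1.

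*Anxa7*, the annexin that binds sorcin, rose slightly. Sham libraries ran from 48.7 CPM through a median of 64.3 to 80.1 CPM, and IZ libraries from 75.9 CPM through 83.8 to 104 CPM. The groups overlapped, with 6 of 9 IZ libraries above every sham library. The log2 fold change was 0.42 ± 0.10 (SE, adjusted p = 8.61e-04).

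*Anxa11*, which carries a long N-terminal tail and binds S100A6 and ALG-2, was the only one of the 9 annexins to be called lower, a call that ended on total counts alone, where its log2 fold change turned to 0.26 (edgeR's quasi-likelihood test, adjusted p = 0.224). In sham it ran from 10.9 CPM through a median of 14.6 to 20.0 CPM. In IZ it ran from 3.63 CPM in replicate 6 through a median of 8.51 to 10.8 CPM. Every IZ library lay below every sham library, a pattern seen in 16.5% of all tested genes. The highest IZ value, 10.846 CPM, however, all but met the lowest sham value, 10.859 CPM. With 16 to 52 counts in sham and 10 to 77 counts in IZ libraries, so small a gap cannot be read as a separation. The mean dropped from 15.3 ± 3.22 CPM (SD, n = 8) to 8.63 ± 2.28 CPM (SD, n = 9), a log2 fold change of -0.83 ± 0.19 (SE, adjusted p = 4.51e-04). An antisense gene, *Anxa11os*, overlaps *Anxa11* in the annotation, and the strand setting of the counting is not given in the sources used here. Genes on the opposite strand also overlap *Anxa1*, *Anxa2*, *Anxa4* and *Anxa8*. Genes on the same strand overlap *Anxa2*, *Anxa3* and *Anxa5*.

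*Anxa8* was the least abundant of the 9 annexins in sham tissue, with 0 to 5 counts per library and 13 counts in all 8 libraries together. IZ libraries held 6 to 127 counts. On the CPM scale sham ran from 0 to 2.74 CPM with a median of 0.913 CPM, and IZ from 2.17 to 17.7 CPM with a median of 7.43 CPM. IZ replicate 1 lay below the highest sham library, and the other 8 lay above all sham libraries. The log2 fold change was 3.24 ± 0.52 (SE, adjusted p = 7.00e-06), the largest estimate of the 9 annexins and the one with the widest error.

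*Anxa8* is known from epithelia, and epithelial and mesothelial markers were scarce in these hearts. The mesothelial and epicardial markers summed to 12.3 to 35.3 CPM in sham, 30.1 to 163 CPM in 8 IZ libraries and 21.7 CPM in IZ replicate 1. IZ replicates 2 and 6 had the highest *Anxa8* levels, 17.7 and 16.3 CPM, and also the highest of these marker sums, 163 and 89.3 CPM. Below them the orders parted. IZ replicate 7 followed in the *Anxa8* share of annexin counts (0.896%) but had a marker sum of 35.2 CPM. IZ replicate 3 had a higher marker sum, 49.9 CPM, but a lower *Anxa8* share, 0.477%. Of these 8 markers 3 were tested. *Msln* and *Tbx18* were called higher, as were 36.3% of all tested genes, and *Wt1* was not called. Among squamous epithelial markers *Ivl* had at most 1 count in any library, *Sfn* was higher and *Krt10* lower, and *Epcam* and *Cdh1* had no count in sham and at most 4 and 7 counts in IZ. The part of these cells in the *Anxa8* result was not tested.

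**Figure D2:**
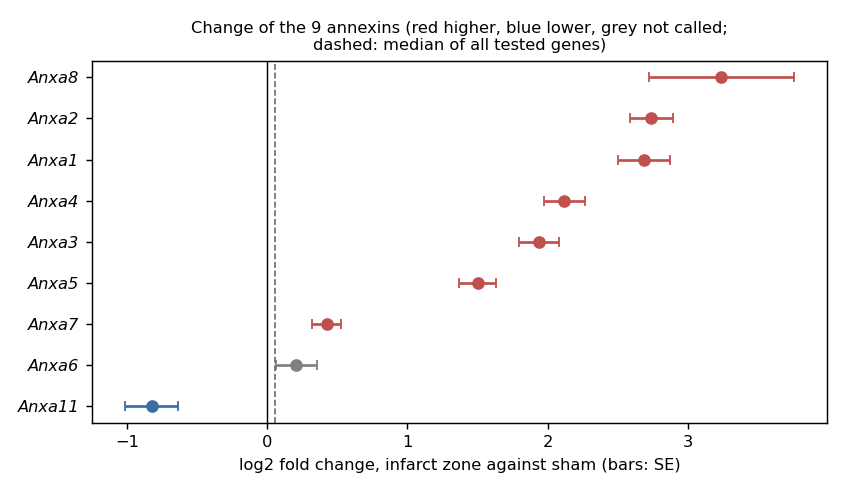
Log2 fold change of each annexin in IZ against sham (x axis, points with SE bars), with a dashed line at the median of all tested genes, 0.05. From *Anxa8* at 3.24 to *Anxa7* at 0.42 the changes were called higher, *Anxa6* at 0.21 was not called, and *Anxa11* at -0.83 was called lower with TMM scaling but stood at 0.26 and uncalled on total counts alone.

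The direction for *Anxa11* and the call for *Anxa6* changed on total counts alone, and held under the other scalings tried. TMM factors between 0.613 and 1.54 were applied. On total counts alone the median over all tested genes was 1.13 in place of 0.05, and 85.7% of all calls were higher in place of 52.3%. *Anxa11* then turned positive, as given above, and *Anxa6* stood at 1.27 (edgeR's quasi-likelihood test, adjusted p = 2.19e-09). Relative to the median of all tested genes the values hardly moved, at -0.88 with TMM and -0.87 on total counts for *Anxa11*, and 0.15 and 0.14 for *Anxa6*. *Anxa11* stood at -0.84 with DESeq2 size factors and at -0.71 with upper quartile scaling, and *Anxa6* at 0.20 and 0.32. In both of these, as with TMM, *Anxa11* was called lower and *Anxa6* was not called. The other 7 annexins were called higher under each of these scalings and on total counts.

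The summed level of the family did not overlap between the groups. Summed over the 9 annexins, the level went from 421 ± 31.6 CPM (SD, n = 8) to 1408 ± 196 CPM (SD, n = 9). Without IZ replicate 1, which stood at 966 CPM, the IZ mean was 1463 ± 113 CPM (SD, n = 8). As a raw share of all counts, annexins made up 0.0282 ± 0.00164% in sham and 0.201 ± 0.0409% in IZ. The raw share was 0.101% in IZ replicate 1 and 0.180 to 0.237% in the other 8 IZ libraries.

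The make-up of the annexin counts also differed between the groups. *Anxa5* held 24.4% of the annexin counts in sham, followed by *Anxa2* with 20.0%, *Anxa6* with 19.1% and *Anxa7* with 15.2% (means of 8 libraries). In IZ *Anxa2* alone held 39.5% (mean of 9 libraries), and its share ran from 31.1 to 43.9%, above the 16.5 to 24.6% seen in sham. *Anxa1* went from 6.62 to 12.4%, with *Anxa1* in IZ replicate 1 at 7.50%, inside the sham range of 3.77 to 7.84%. The *Anxa6* share was 6.93% and the *Anxa7* share 6.20% in IZ. *Anxa11* went from 3.64 to 0.622%. Shares of 1 total are bound to each other, so they are given as a description.

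**Figure D3:**
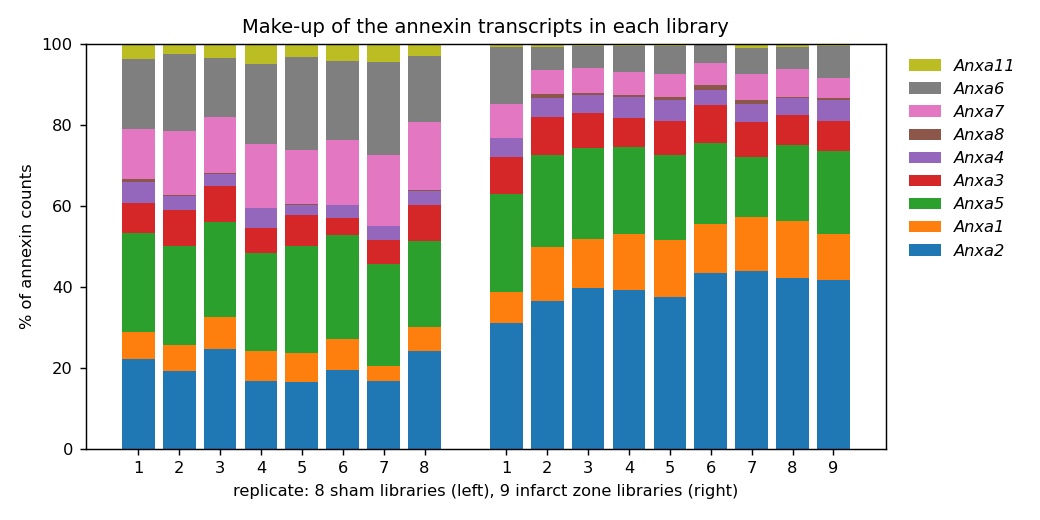
Share of each annexin in the annexin counts of a library (y axis, %), 1 stacked bar per library, 8 sham libraries on the left and 9 IZ libraries on the right. *Anxa2* (bottom segment) fills 31.1 to 43.9% of the IZ bars and 16.5 to 24.6% of the sham bars, and *Anxa6* and *Anxa7* take less of the IZ bars, with IZ replicate 1 nearest to sham.

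Levels of different annexins could be set side by side since 3' end sequencing yields tags from 1 end of a transcript, so counts were not divided by length. Ordered by mean CPM, sham ran from *Anxa5* through *Anxa2*, *Anxa6*, *Anxa7*, *Anxa3*, *Anxa1*, *Anxa11* and *Anxa4* to *Anxa8*. Of the 8 neighbouring pairs in that order 4 differed within libraries by a two-sided exact sign-flip permutation test of log2 CPM, adjusted over 16 pairs of both groups. Without any one of sham replicates 1 to 6 the count was 2. *Anxa5* and *Anxa2* did not (difference 0.30 ± 0.32 on the log2 scale, SD, n = 8, exact permutation adjusted p = 0.0750). Nor did *Anxa2* and *Anxa6*, *Anxa3* and *Anxa1*, or *Anxa11* and *Anxa4*, with adjusted p from 0.644 to 0.984 in the same exact permutation test.

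In IZ the order was *Anxa2*, *Anxa5*, *Anxa1*, *Anxa3*, *Anxa6*, *Anxa7*, *Anxa4*, *Anxa8* and *Anxa11*. Here 5 of 8 neighbouring pairs differed, each with adjusted p = 0.0179 by the exact permutation test. *Anxa2* exceeded *Anxa5* in 9 of 9 libraries, by 0.93 ± 0.33 on the log2 scale (SD, n = 9). *Anxa3* and *Anxa6* did not differ past the threshold (0.34 ± 0.49, exact permutation adjusted p = 0.114), nor did *Anxa6* and *Anxa7* (0.625) or *Anxa8* and *Anxa11* (0.808). *Anxa1* moved from the sixth place in sham to the third in IZ.

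Whether 2 annexins changed unequally was tested on their log2 ratio within each library, by an exact two-sided permutation test with 24310 arrangements of the group labels. Of the 36 pairs 30 changed unequally after adjustment over the 36, and of the 28 pairs without *Anxa8*, which passed the filter through its IZ libraries, 25 did. The share over pairs of other tested genes was not computed, and 69.5% of all tested genes were called. The counts therefore cannot be read as particular to annexins. *Anxa1* and *Anxa2* were among the 6 that did not pass (difference of log2 changes -0.09, exact permutation adjusted p = 0.541), as were *Anxa3* and *Anxa4* (adjusted p = 0.528), *Anxa6* and *Anxa7* (-0.23, adjusted p = 0.195) and 3 pairs with *Anxa8*. Apart from the prior count of 1 added before the logarithm, these ratios do not depend on how libraries were scaled. The prior count weighs most on pairs with *Anxa8*, which had 0 to 5 counts per sham library.

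The partners of annexins were also measured. Of 6 EF-hand partners 5 were higher and none lower (36.3% and 33.1% of all tested genes), and the median log2 fold change was 2.10, beside 0.05 over all tested genes. *S100a4*, known from migrating cells, rose by 3.42 ± 0.23, *S100a11*, the partner of annexin A1, by 2.92 ± 0.20, and *S100a6*, the partner of annexin A11, by 2.47 ± 0.19 (log2 fold change, SE). *S100a10*, the partner of annexin A2, rose by 1.73 ± 0.14 and *Sri* (sorcin), the partner of annexin A7, by 0.98 ± 0.12. *Pdcd6* (ALG-2) stood at 0.33 ± 0.15 (edgeR's quasi-likelihood test, adjusted p = 0.0531).

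*Anxa2* rose more than its partner. The ratio of *Anxa2* to *S100a10* was 1.12 in sham and 2.27 in IZ, computed as means of log2 CPM. On the log2 scale the ratio ran from -0.20 to 0.45 in sham and from 0.94 to 1.47 in IZ, without overlap. The difference of 1.02 had the exact permutation adjusted p = 8.23e-05 over the 4 partner pairs. *Anxa11* and *S100a6* moved apart by -3.24 (exact permutation adjusted p = 8.23e-05). *Anxa7* rose less than *Sri*, by -0.56 (exact permutation adjusted p = 0.00417), with overlap of the groups. The *Anxa1* to *S100a11* ratio differed by -0.26 (exact permutation adjusted p = 0.356) and its libraries overlapped. Without IZ replicate 1 the same number of partner pairs, 3 of 4, passed. For this number too, no share over other pairs of genes was computed.

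**Figure D4:**
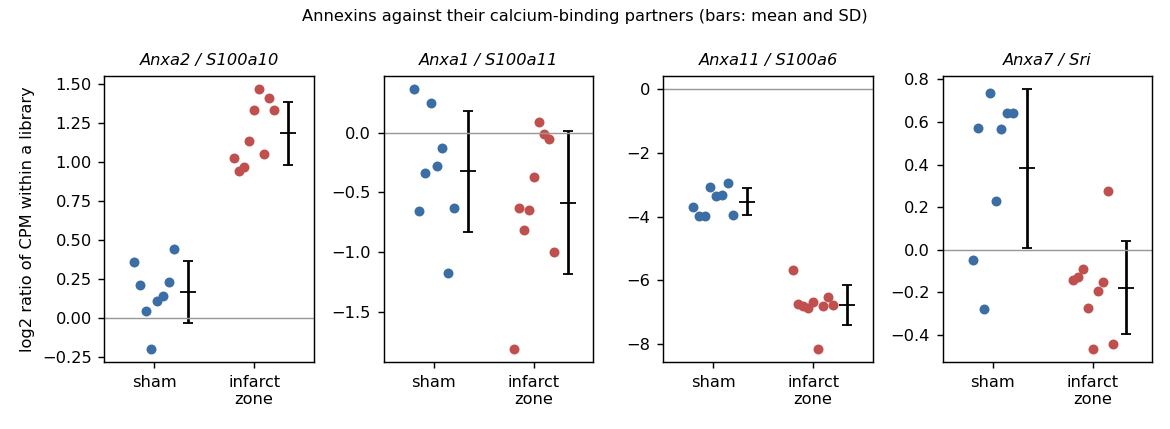
Log2 ratio of an annexin to its EF-hand partner within each library (y axis), for *Anxa2* and *S100a10*, *Anxa1* and *S100a11*, *Anxa11* and *S100a6*, and *Anxa7* and *Sri*, with 8 sham and 9 IZ points and bars for mean and SD. The groups are apart for *Anxa2* (sham up to 0.45, IZ from 0.94) and for *Anxa11* (sham from -3.99, IZ up to -5.68), and overlap for the other 2 pairs.

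Receptors and further annexins were near the limit of detection. *Fpr2*, the main receptor of annexin A1, had at most 1 count in a sham library and 1 to 20 counts in IZ libraries. *Fpr1* had no count in sham and at most 6 counts in IZ. *Anxa10* had no count in any library, *Anxa13* at most 1, and *Anxa9* at most 3 counts in sham and 2 to 13 in IZ. None of these passed the filter, and no change was tested for them.

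Cell surface plasmin formation, which annexin A2 and S100A10 support, was followed by activators, receptors and an inhibitor. *Plau*, the urokinase activator, rose by 1.19 ± 0.18 and its receptor *Plaur* by 2.58 ± 0.34 (log2 fold change, SE). *Plat*, the tissue activator, rose by 0.85 ± 0.18 (SE). *Serpine2*, an inhibitor of plasminogen activators, rose by 1.89 ± 0.14 (SE), more than *Plau* and *Plat*. A call of higher was given to 36.3% of all tested genes. *Plgrkt*, a plasminogen receptor, stood at -0.16 ± 0.14 (edgeR's quasi-likelihood test, adjusted p = 0.304).

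Of 12 tested membrane repair genes 6 were higher and 2 lower, with a median of 0.29, and the share called in either direction was near the 69.5% of all tested genes. *Myof*, the ferlin myoferlin, rose by 3.22 ± 0.20 (SE) and *Cav3*, the muscle caveolin, fell by 2.34 on the log2 scale (SE 0.24). *Dysf*, the muscle ferlin dysferlin, was the other lower gene, and fell by 0.79 (SE 0.16). *Trim72*, a muscle repair protein, had at most 1 count in any library.

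Of 11 tested genes of phosphatidylserine exposure and binding, the ligand of annexin A5, 7 were higher and 1 lower, with a median of 0.85, and the share called was near the 69.5% of all tested genes, of which 36.3% were higher. *Mertk*, a receptor for engulfing dying cells, rose by 2.01 ± 0.26 (SE), and *Atp11a*, a lipid flippase, fell by 0.86 (SE 0.11). Annexin A1 was first described as an inhibitor of phospholipase A2 activity. Of 5 tested genes of the phospholipase A2 family, not all of which are known targets of annexin A1, 3 were higher and 1 lower. These calls were given to 36.3% and 33.1% of all tested genes. The median of the 5 was 1.92. *Pla2g7* rose by 3.75 ± 0.24 (SE) and *Pla2g5* fell by 4.02 (SE 0.28).

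Glucocorticoids induce *Anxa1* in many cells. Of 6 genes, the glucocorticoid receptor and its targets, 1 was higher and 2 were lower, with a median of -0.18, and 69.5% of all tested genes were called. *Fkbp5* rose by 1.83 ± 0.26 (SE). The receptor *Nr3c1* fell by 0.67 (SE 0.13) and *Zbtb16* fell by 2.12 (SE 0.32). *Tsc22d3* at -0.08 ± 0.24, *Per1* at -0.29 ± 0.25 and *Sgk1* at 0.26 ± 0.16 were not called by edgeR's quasi-likelihood test.

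Likeness of pattern between genes was measured by Pearson's r of log2 CPM over the 17 libraries after the group means were subtracted. This removed the difference between the means of IZ and sham. IZ replicate 1, which stood between the groups, could still carry part of that difference. Likeness was computed for tested genes of at least 10 CPM and is a description without a test, since the points share depth and cell content. *Anxa1* was most like *Cd68* (r = 0.84), *Cstb* (0.84) and *Cd9* (0.83). Without IZ replicate 1 these fell to 0.58, 0.40 and 0.66. *Anxa2* was most like *Fcgr3* (0.93), *Ier5l* (0.89) and *Coro1c* (0.89), which stood at 0.81, 0.78 and 0.77 without that library. *Anxa6* was most like *Jund* (0.91), *Wnk1* (0.89) and the mitochondrial *mt-Atp8* (0.88).

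For *Anxa5* the nearest genes were *F2r* (0.88), *Sf3b4* (0.87) and *Gm6807* (0.82), and for *Anxa4* *Gm14336* (0.92), *Atad2* (0.79) and *Gm11759* (0.78). *Anxa3* was nearest to *Wls* (0.87), *Arfgap3* (0.86) and *Cbfa2t2* (0.86). *Anxa8* was nearest to *Eef1e1* (0.86), *Zfp384* (0.85) and *Slc35e4* (0.83). Sham libraries held only 0 to 5 *Anxa8* counts, so the prior count weighs on its values and they are less sure than the others. The lowest leading values were those of *Anxa7* with *Hnrnpr* (0.75), *Eif2a* (0.74) and *Zfp263* (0.74), and of *Anxa11* with *Spopl* (0.79), *Ube3c* (0.79) and *Dcaf7* (0.78).

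In the GENCODE annotation of GRCm38 the 9 annexins are protein-coding genes spread over 7 chromosomes. *Anxa7*, *Anxa8* and *Anxa11* share chromosome 14, at 20455260 to 20480133 (- strand), 34085981 to 34100571 (+ strand) and 25842156 to 25886804 (+ strand). These 3 genes, far apart on that chromosome, differed in their change from -0.83 for *Anxa11* with TMM scaling (0.26 on total counts alone) to 3.24 for *Anxa8*. *Anxa2* spans 69453620 to 69491795 of chromosome 9 (+ strand), *Anxa1* 20373428 to 20390944 of chromosome 19 (- strand) and *Anxa6* 54979108 to 55033445 of chromosome 11 (- strand). *Anxa5* lies on chromosome 3, *Anxa3* on 5 and *Anxa4* on 6. No annexin shared a stretch of at least 100 bases at 95% identity in the last 500 bases of its longest protein-coding transcript with another gene. The ends of its other transcripts were not searched.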

How the data were processed

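RNA of 17 hearts (8 sham, 9 IZ) was sequenced by the authors with massive analysis of cDNA ends, with unique molecular identifiers that served to remove PCR duplicates. The deposited values are raw counts per gene, which the authors obtained by trimming, mapping to mm10 and counting with HTSeq. The submitters' processing notes also name bcl2fastq, Bowtie2 and DESeq2. The annotation release, the strand setting and the treatment of multi-mapping reads are not given in the sources used here.

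Of 31647 features 35 were merged overlapping genes (0.0919 to 0.215% of the counts of a library), none of them an annexin. They were kept in library sizes. Identifiers were joined to GENCODE vM21 (31521 matched). The test used edgeR 4.0.16 (R 4.3.3) on genes that passed filterByExpr (minimum of 10 counts), with TMM scaling, the two-sided quasi-likelihood F-test without covariates and Benjamini-Hochberg adjustment at a threshold of 0.05. SE values were derived from the F statistic. CPM uses TMM-scaled library sizes, and log2 CPM a prior count of 1. Ratios within libraries and neighbouring levels were compared by exact permutation. Total counts limit the precision for low genes, and *Anxa8* has the largest SE of the 9 annexins.

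Named were all annexins, every member of partner and pathway lists of at most 6 genes, the highest and lowest of longer lists, and the 3 genes most like each annexin, at 10 CPM or more. *Dysf*, *Trim72*, *Plat*, *Plau*, *Plaur*, *Serpine2* and the marker genes were named in addition, after their values were seen. The members and lists were chosen with earlier results of these data known. *Fpr3*, *Plg*, *Pla2g2a*, *Krt5* and *Krt6a* were not analysed here. The result of 1 further listed gene is not reported here. Near-identical 3' ends were sought with BLAST 2.17.0. Python 3.11.15, NumPy 2.4.6, pandas 2.3.3, SciPy 1.17.1 and Matplotlib 3.10.9 were used. The fit was tested on simulated data in which 200 of 12301 genes were changed, some up and some down. It called 77.5% of the changed genes, and 3.73% of its calls were false. With so few changed genes, the simulation could not test the scaling on which *Anxa11* and *Anxa6* depend.

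Other settings tried were scaling in edgeR by total counts alone, by the upper quartile or by DESeq2 size factors, DESeq2 1.42.0 with its Wald test, genes unfiltered, a minimum mean of 50 counts, thinning to 1237675 counts, removal of mitochondrial features, the replicate number as a block, a prior count of 5, medians, and the omission of each library. The omission of each library with the tested genes held fixed was chosen after seeing the data.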

Additional observations from a re-analysis of the deposited data

Results flagged for a closer look

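A library that stood apart from the rest of its group was sought in 32 groups of values (9 annexins, 6 partners and the annexin share of counts, each in sham and IZ), by the gap to the nearest library over the range of the group. By chance about 1 in 20 groups would be flagged. IZ replicate 1 was far below the other IZ libraries for *Anxa1* (72.5 CPM, nearest 160 CPM), *Anxa2* (301 CPM, nearest 532 CPM), *S100a6* (390 CPM, nearest 898 CPM), *S100a4* (66.7 CPM, nearest 198 CPM) and the annexin share of all counts (0.101%, nearest 0.180%). The same library held 29636 CPM of summed cardiomyocyte markers, against 2826 to 6774 CPM in the other IZ libraries, and the part of this in the low values was not tested.

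*Anxa11* was far below the other IZ libraries in IZ replicate 6, at 3.63 CPM (nearest 7.25 CPM). Sham replicate 3 was far above the other sham libraries for *S100a10* (101 CPM, nearest 73.0 CPM) and *S100a6* (229 CPM, nearest 190 CPM).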

How the results depend on the processing

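Across scalings, filters, tools and omitted libraries, *Anxa1* to *Anxa5* and *Anxa7* kept a called rise, as did *Anxa8* wherever it was tested. On total counts alone *Anxa11* reversed to 0.26, which left 0 annexins called lower and 8 called higher, and the median of all tested genes was 1.13 (upper quartile scaling 0.17, DESeq2 Wald test -0.20, no filter 0.24). With a minimum mean of 50 counts *Anxa8* and *Anxa11* were not tested, so 6 annexins were called higher, 0 lower, and 5239 genes in all, against 8544, since fewer genes were tested. Thinned to the smallest total, *Anxa8* was not tested.

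With 1 library omitted, 6 to 7 annexins were called higher and 1 lower, and 7962 to 8614 genes were called. *Anxa8* fell below the filter without any one of IZ replicates 2 to 9. *Anxa11* ranged from -0.89 to -0.71 and *Anxa6* from 0.09 to 0.28, uncalled throughout. With the tested genes held fixed, 7 were called higher throughout and *Anxa8* ranged from 3.01 to 3.71.

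Neighbouring annexins that differed numbered 2 to 4 in sham, with 2 without any one of sham replicates 1 to 6, and 5 to 6 in IZ. With medians they numbered 0 in both groups, where the sign-flip test cannot give a p below 0.0625. Unequal pairs numbered 29 to 30 with 1 library omitted and 26 with medians, and 3 of 4 partner pairs passed throughout.

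Groups share replicate numbers, and deviations of samples with the same number correlated at -0.22 to 0.13. No pairing by number was seen in these values. They cannot exclude it, since differently numbered samples were not correlated for reference. With the number as a block, for which IZ replicate 9 has no counterpart, 7 annexins were called higher, 1 lower and 8079 genes in all. Depth limits *Anxa8* (13 sham counts in all) and leaves formyl peptide receptors and *Anxa9*, *Anxa10* and *Anxa13* untested.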
